A study of Mus musculus with 4 samples.

Results

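The genes of NAD synthesis and of the kynurenine pathway were examined in the injured mouse kidney. They are the 10 genes Afmid, Kmo, Kynu, Haao, Qprt, Acmsd, Nampt, Naprt, Nmnat1 and Nadsyn1, taken by gene symbol from a table of 54078 features. Each symbol matched 1 Ensembl gene, and all 10 passed the filter on low values, among 15414 genes tested. They were grouped by their place in the pathway, with earlier results of these libraries known. The 4 libraries hold total kidney RNA of adult male mice 3 days after bilateral ischaemia of 30 min and reperfusion. The WT group has 2 libraries, from Apela flox/flox littermates without Cre. The KO group has 2 libraries, from Apela flox/flox mice with Cre under the Ksp-cadherin promoter, which is active in renal tubular epithelial cells. So both groups carry the floxed allele, and both were injured. Each library is a pool of RNA from 3 different mice, so n = 2 counts pools and p-values measure the spread between pools. The labels give the strain as C57BL/6 x 129S4/SvJae, and the study's methods give C57BL/6. Some mice died before day 3, and survival differed by genotype in the study, so the pools come from survivors, and selection by survival cannot be told apart from genotype here. No sham-operated kidneys are among these libraries, so the comparison is KO against WT after injury, and a change with injury itself was not measured here.

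NAD carries electrons in energy metabolism and is the substrate of sirtuins, poly(ADP-ribose) polymerases and CD38. Cells make it by 3 routes, from tryptophan (de novo), from nicotinic acid (the Preiss-Handler route) and from nicotinamide (salvage). In the de novo route tryptophan is opened to formylkynurenine, AFMID releases kynurenine, and KMO, KYNU and HAAO convert it to an unstable semialdehyde. That semialdehyde either closes by itself to quinolinic acid, which QPRT turns into nicotinic acid mononucleotide, or is drawn off towards acetyl-CoA by ACMSD. The proximal tubule is a main site of the de novo route outside the liver, and NAD synthesis, QPRT included, is known to decline in acute kidney injury.

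The genes with the smallest p-values among the 10 were Acmsd and Qprt, at the branch point of the de novo route. Acmsd was lower in both KO pools, at 54.7% of the WT mean, and Qprt was also lower in both, at 58.1%. The enzyme genes before the branch, Afmid, Kmo, Kynu and Haao, had overlapping pools, with KO means between 98.8% and 113% of WT. Nampt had the widest difference in means, at 2.16 times WT, but was high in 1 KO pool only, and Naprt, Nmnat1 and Nadsyn1 had KO means between 86.5% and 106% of WT. With limma and Benjamini-Hochberg adjustment over 15414 genes, 0 of the 10 had an adjusted p under 0.05, as for 0% of all genes tested. The study itself reports differentially expressed genes for this comparison at the same adjusted threshold, without naming its model. So the 0% holds for the fit used here. At an unadjusted p under 0.05 there were 2 of the 10, Acmsd and Qprt, both lower in KO, where 3.03% of all genes tested were lower and 6.32% moved in either direction at that level. Both KO pools lay below both WT pools for 4 of the 10 (Acmsd, Qprt, Naprt and Nmnat1), against 18.1% of all genes tested, and above them for 0, against 19.7%. The median log2 fold change of the 10 genes was 0.0062, beside 0.0071 over all genes tested, since 5 were lower and 5 higher.

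**Figure D1:**
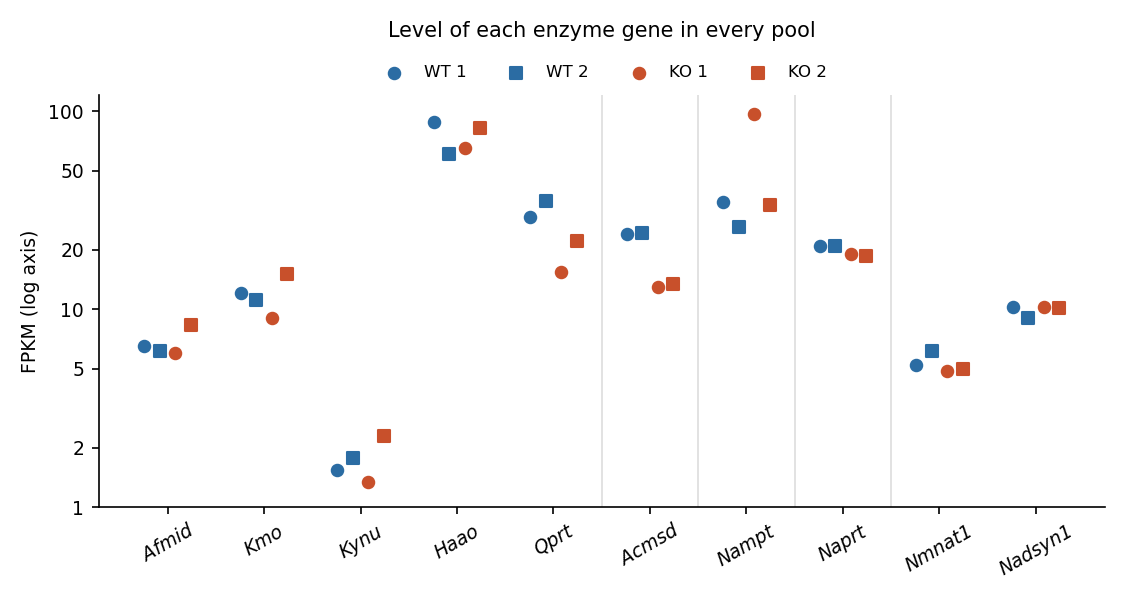
FPKM of each of the 10 enzyme genes on a log axis, with the 2 WT pools in blue and the 2 KO pools in red (circles, replicate 1; squares, replicate 2). From left to right the lines separate the de novo enzymes, Acmsd, Nampt, Naprt and the last steps. For Acmsd and Qprt both red points lie below both blue points, and for Nampt KO replicate 1 stands at 97.5 FPKM.

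The start regions of Qprt, whose level was lower in both KO pools, and of Haao, the step just before the branch, whose pools overlapped, are shown for comparison. Each runs 5′ to 3′ on the gene's strand from 250 bases before to 50 bases after the RefSeq start site (GRCm38.p6). That of Qprt is chr7:127121980-127122279 on the minus strand, and that of Haao chr17:83846741-83847040 on the minus strand. Capitals mark matches, on either strand, to 5 short motifs that were searched.
Qprt: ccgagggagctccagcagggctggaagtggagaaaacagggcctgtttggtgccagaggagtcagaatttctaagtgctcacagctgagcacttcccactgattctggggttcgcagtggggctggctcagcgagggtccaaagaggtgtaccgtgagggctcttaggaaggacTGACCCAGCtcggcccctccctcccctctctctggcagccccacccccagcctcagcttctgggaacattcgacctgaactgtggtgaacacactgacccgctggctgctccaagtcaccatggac
Haao: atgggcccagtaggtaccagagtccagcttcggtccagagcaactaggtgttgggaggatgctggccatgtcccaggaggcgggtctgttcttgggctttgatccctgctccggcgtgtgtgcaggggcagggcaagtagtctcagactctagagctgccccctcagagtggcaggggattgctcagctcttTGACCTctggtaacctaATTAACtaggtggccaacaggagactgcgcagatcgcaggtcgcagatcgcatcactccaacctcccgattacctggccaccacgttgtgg

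The motifs were AGGTCA, the core recognised by many nuclear receptors, GTTAAT, recognised by HNF1, the E-box CACGTG, the TATA box TATAAA and TGACNNNGC, the core of the antioxidant response element. No matches overlapped each other in either region. Haao had the nuclear receptor core, read as TGACCT and starting 58 bases before the start site, and also the HNF1 element, read as ATTAAC and starting 41 bases before it. Qprt had the antioxidant response core, as TGACCCAGC, starting 76 bases before its start site. RefSeq places that start 197 bases downstream of the gene start in the deposited table. The Nampt region, not shown, also held the nuclear receptor core. Of 32817 such regions in the mouse genome, 16.3% held the nuclear receptor core, 7.10% the HNF1 element, 12.4% the antioxidant response core, 7.15% the E-box and 13.6% the TATA box. Regions of 7 of the 10 genes were searched, with 8 regions in all, and those of Naprt, Kynu and Acmsd were not used here. The E-box and the TATA box had no match in the 8 regions. The Kmo region was poorest in G and C of the 8, at 44.3% with 7 CpG sites, and the Nampt region richest, at 76.3% with 36, against medians of 52.7% and 7 over all regions. The RefSeq start used for Kmo lies 11812 bases inside the gene of the deposited table, and that for Nampt 790 bases inside it. These matches describe the sequence only.

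Acmsd (ENSMUSG00000026348) encodes the decarboxylase that diverts the semialdehyde from NAD synthesis. It maps to chr1:127729413-127767978 (GRCm38, plus strand), and its longest coding transcript in GENCODE M21 has 10 exons and 1008 coding bases. Its FPKM was 24.0 in WT replicate 1, 24.2 in WT replicate 2, 13.0 in KO replicate 1 and 13.4 in KO replicate 2. The pools of each group were nearly equal, and the groups were well apart. These values rest on 1092 and 1180 reads in WT and 614 and 617 reads in KO. The WT mean was 24.1 ± 0.161 and the KO mean 13.2 ± 0.323 FPKM (SD, n = 2 pools each). The log2 fold change was -0.85 (standard error 0.10, 95% interval -1.12 to -0.57, adjusted p = 0.466, limma). Ordered by p-value Acmsd ranked 19 of the 15414 genes. An antisense transcript, 2900009J06Rik, shares 94 exonic bases with Acmsd and was at 0.347 FPKM or less.

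Qprt (ENSMUSG00000030674) encodes the enzyme that commits quinolinic acid to NAD. It maps to chr7:127107114-127122226 (minus strand), with 4 exons and 897 coding bases. Its FPKM was 29.3 (replicate 1) and 35.4 (replicate 2) among the WT pools, against 15.5 and 22.1 among the KO pools. Both KO pools lay below both WT pools, but the pools of a group were further apart than for Acmsd, by 1.21 times in WT and 1.43 times in KO. The WT mean was 32.3 ± 4.32 and the KO mean 18.8 ± 4.68 FPKM (SD, n = 2 pools each). The log2 fold change was -0.78 (standard error 0.21, 95% interval -1.35 to -0.22, adjusted p = 0.760, limma). Leaving out KO replicate 2 gave -1.03, and leaving out KO replicate 1 gave -0.53.

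ACMSD removes the semialdehyde and QPRT uses the quinolinic acid that forms from it, so the ratio of their genes was taken within each pool. The FPKM of Qprt was 1.22 and 1.46 times that of Acmsd in the WT pools and 1.19 and 1.65 times in the KO pools. So the ratio overlapped between groups, while each of the genes alone did not. The ratios of Haao to each of the 2 genes did not overlap between groups, and no test was run on them. Haao was 3.67 and 2.51 times Acmsd in the WT pools and 5.03 and 6.11 times in the KO pools. It was 3.01 and 1.72 times Qprt in WT and 4.21 and 3.71 times in KO. The ratios to Haao share its values, so they are not independent of each other.

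**Figure D2:**
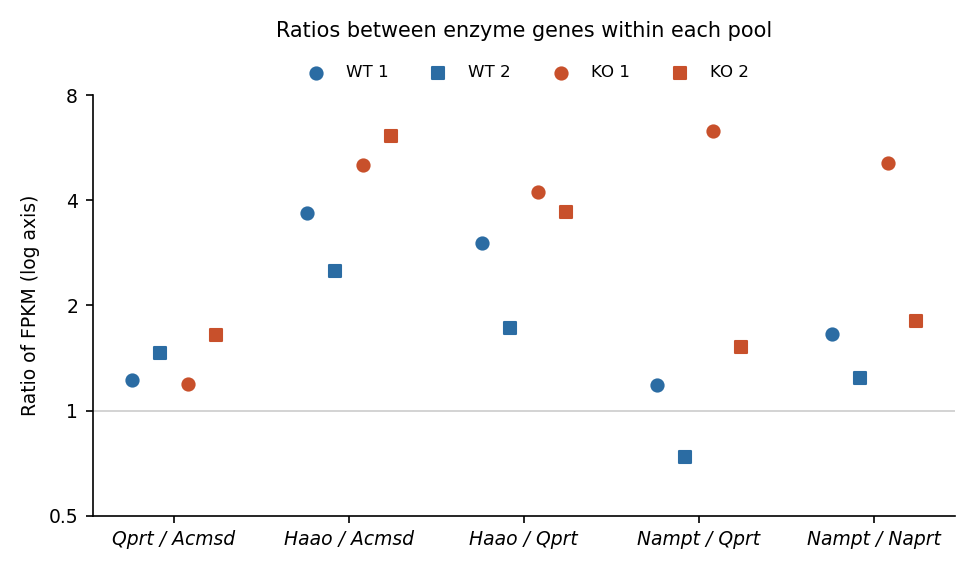
Ratio of FPKM between pairs of enzyme genes within each pool, on a log axis, with WT pools in blue and KO pools in red (circles, replicate 1; squares, replicate 2). The ratio of Qprt to Acmsd lies between 1.19 and 1.65 in all 4 pools, while the ratio of Haao to Acmsd is higher in both KO pools.

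Haao (ENSMUSG00000000673), the dioxygenase that forms the semialdehyde, was the most abundant of the 10 genes by FPKM. It maps to chr17:83831356-83846790 (minus strand) in the table. Its FPKM was 88.1 and 60.9 among the WT pools, against 65.2 and 82.0 among the KO pools. The KO values lay within the WT range, with a log2 fold change of -0.0028 (95% interval -0.62 to 0.62, adjusted p = 0.999, limma). The authors used a length of 1222 bases for Haao, while GENCODE M21 gives 4681 exonic bases and a wider gene, from 83831156 to 83847963. The same reads divided by that length would give a mean over the 4 pools of 19.3 rather than 74.1 FPKM. Reads on the added bases are not in that value, so the level under the longer model is not known. Its place above the other genes may thus depend on the gene model. The comparison between groups does not depend on the length.

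Kmo, Kynu and Afmid had a common order of the pools. In each, KO replicate 1 was lowest and KO replicate 2 highest, with both WT pools between them. Kmo (ENSMUSG00000039783), the kynurenine hydroxylase of the outer mitochondrial membrane, maps to chr1:175620381-175662116 (plus strand). Its FPKM was 12.0 and 11.2 among the WT pools, against 9.04 and 15.2 among the KO pools, with a log2 fold change of 0.015 (95% interval -0.67 to 0.70). Kynu (ENSMUSG00000026866), the kynureninase, maps to chr2:43555329-43682715 (plus strand). It was the lowest of the 10 genes, at 1.54 and 1.78 FPKM in WT and 1.34 and 2.30 FPKM in KO, from 138 to 230 reads per pool. Its log2 fold change was 0.077 (95% interval -0.59 to 0.75). Afmid (ENSMUSG00000017718), the formamidase, maps to chr11:117825924-117839908 (plus strand). Its FPKM was 6.54 and 6.14 in WT and 6.05 and 8.34 in KO, with a log2 fold change of 0.15 (95% interval -0.32 to 0.63). Afmid shares 1566 of its exonic bases (44.2%) with Gm20708, a gene on the same strand that is listed at 0 in all 4 pools, and how the authors assigned reads there is not given in the sources used here. The adjusted p-values of Kmo, Kynu and Afmid were 0.994, 0.964 and 0.888 (limma).

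**Figure D3:**
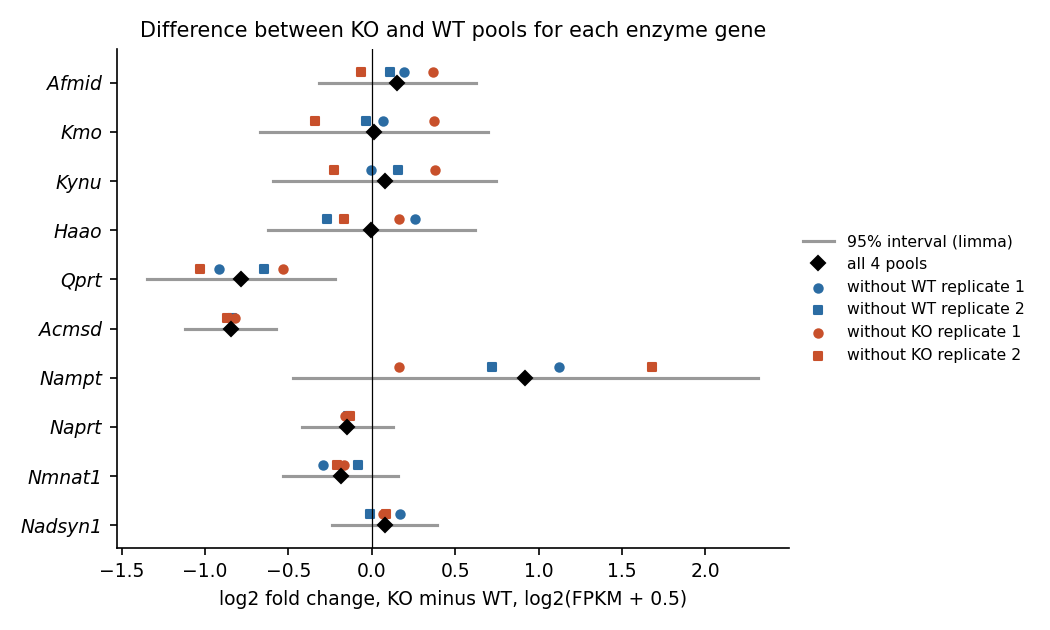
Log2 fold change of each enzyme gene, KO minus WT on the scale log2(FPKM + 0.5), with all 4 pools (black diamonds), its 95% interval (grey bars) and the value with each pool left out (coloured points). Acmsd stays between -0.87 and -0.82 whichever pool is left out, and Nampt ranges from 0.16 to 1.68.

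Nampt (ENSMUSG00000020572) encodes the rate-limiting enzyme of salvage, which joins nicotinamide to phosphoribosyl pyrophosphate. It maps to chr12:32819545-32853349 (plus strand), with 11 exons and 1473 coding bases. Its FPKM was 34.7 and 26.0 among the WT pools, but 97.5 in KO replicate 1 and 33.6 in KO replicate 2. KO replicate 1 was 2.90 times KO replicate 2, which lay within the WT range. The WT mean was 30.4 ± 6.10 and the KO mean 65.6 ± 45.2 FPKM (SD, n = 2 pools each). The log2 fold change was 0.92 (standard error 0.53, 95% interval -0.47 to 2.32, adjusted p = 0.798, limma). Without KO replicate 1 it was 0.16, so the difference rests on that pool. Within a pool Nampt was 1.18 and 0.735 times Qprt in WT and 6.30 and 1.52 times in KO, so this ratio was higher in both KO pools, with Qprt itself lower there. The ratio of Nampt to Naprt was 1.66 and 1.24 in WT and 5.12 and 1.80 in KO. Against Haao the pools overlapped, at 0.394 and 0.427 in WT and 1.495 and 0.410 in KO.

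Naprt (ENSMUSG00000022574), the entry enzyme of the Preiss-Handler route, maps to chr15:75890956-75894481 (minus strand). Its FPKM was 20.9 and 21.004 in WT and 19.1 and 18.7 in KO, which is 90.1% of WT. The KO pools lay below the WT pools by a small amount, with a log2 fold change of -0.15 (95% interval -0.42 to 0.12, adjusted p = 0.826, limma). Naprt shares 277 exonic bases with Eef1d on the same strand, which was between 13.7 and 15.7 FPKM. Nmnat1 (ENSMUSG00000028992), the nuclear enzyme that completes the dinucleotide in all routes, maps to chr4:149467572-149485202 (minus strand). Its FPKM was 5.24 and 6.16 in WT and 4.86 and 5.01 in KO, with a log2 fold change of -0.19 (95% interval -0.53 to 0.16, adjusted p = 0.825, limma). Nadsyn1 (ENSMUSG00000031090), the NAD synthetase that adds the amide in the de novo and Preiss-Handler routes, maps to chr7:143795584-143822849 (minus strand). Its FPKM was 10.3 and 9.02 in WT and 10.3 and 10.1 in KO, with a log2 fold change of 0.077 (95% interval -0.24 to 0.39, adjusted p = 0.916, limma).

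By mean FPKM over the 4 pools, the order was Haao, Nampt, Qprt, Naprt, Acmsd, Kmo, Nadsyn1, Afmid, Nmnat1 and Kynu, from 74.1 down to 1.74. Nadsyn1 was above Afmid, and Nmnat1 above Kynu, in 4 of 4 pools without overlap of their ranges. The ranges of all 7 other neighbouring pairs overlapped. The order differed between the groups. In WT the mean of Qprt was above that of Nampt, at 32.3 against 30.4 FPKM, and Nampt stood above Haao in KO replicate 1 alone. In KO the means of Naprt and Qprt were 18.9 and 18.8 FPKM. Acmsd was above Naprt in both WT pools and below it in both KO pools. Among all genes tested, 95.6% were at or below the mean level of Haao and 23.9% at or below that of Kynu.

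The rest of NAD metabolism was examined through 40 other genes, which hold 42 rows of the table because Pnp and Nnt have 2 each. Of these rows 31 passed the filter, and 0 had an adjusted or an unadjusted p under 0.05. Both KO pools lay below both WT pools for 5 of the 31, against 18.1% of all genes tested, and above them for 5, against 19.7%, so both counts were near the background. The median log2 fold change was 0.039, from -0.53 to 0.54. The oxygenases that open tryptophan were hardly present, with Tdo2 and Ido1 at 5 reads or fewer in each pool and Ido2 between 0.510 and 1.56 FPKM. Aldh8a1, which acts after Acmsd in the diverting branch, was at 57.4 and 39.8 FPKM in WT and 47.8 and 54.5 FPKM in KO, so the next gene of that branch overlapped between groups. Among the aminotransferases that draw kynurenine off to kynurenic acid, Aadat was at 51.5 and 24.2 FPKM in WT and 14.7 and 44.1 FPKM in KO, with the lowest value in KO replicate 1. Kyat1 was at 44.6 and 22.1 FPKM in WT and 50.4 and 41.8 FPKM in KO, and the pools of both overlapped. Of the 5 genes of these side branches, Aadat had a log2 fold change below 0 and Kyat1, Got2, Kyat3 and Aldh8a1 above 0, from 0.094 to 0.54, with overlapping pools in all 5.

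Of the other NAD synthesis enzymes, Nmrk1, the nicotinamide riboside kinase, was at 28.7 and 22.3 FPKM in WT and 23.9 and 15.9 FPKM in KO. Its pools overlapped, with a log2 fold change of -0.37 (standard error 0.24). Nadk, which phosphorylates NAD to NADP, was between 57.5 and 71.7 FPKM over the 4 pools. Slc25a51, the mitochondrial NAD carrier, was at 45.7 and 38.0 FPKM in WT and 46.6 and 54.2 FPKM in KO, where the KO pools were the higher, and had a log2 fold change of 0.27 (standard error 0.16, limma). The NAD consumers Cd38, Bst1 and Parp2 were also higher in both KO pools, with log2 fold changes from 0.16 to 0.29. So was Nmnat3, the mitochondrial relative of Nmnat1, at 5.14 and 4.09 FPKM in WT and 5.42 and 5.86 FPKM in KO (log2 fold change 0.27, standard error 0.15). Parp1, Sirt1, Sirt4, Sirt5 and Nnmt were lower in both, with log2 fold changes from -0.53 to -0.048. Nnmt, which methylates nicotinamide for excretion, had the largest of these differences, at 2.80 and 4.65 FPKM in WT and 2.20 and 2.50 FPKM in KO (log2 fold change -0.53, adjusted p = 0.797, limma). Without WT replicate 2 it was -0.21. Ppargc1a, the coactivator known to drive the de novo enzymes in the kidney, was at 10.2 and 7.25 FPKM in WT and 8.22 and 8.55 FPKM in KO, and its log2 fold change was -0.037 (standard error 0.19). Hnf4a, a transcription factor of the proximal tubule, was between 135.5 and 153.8 FPKM in all pools.

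**Figure D4:**
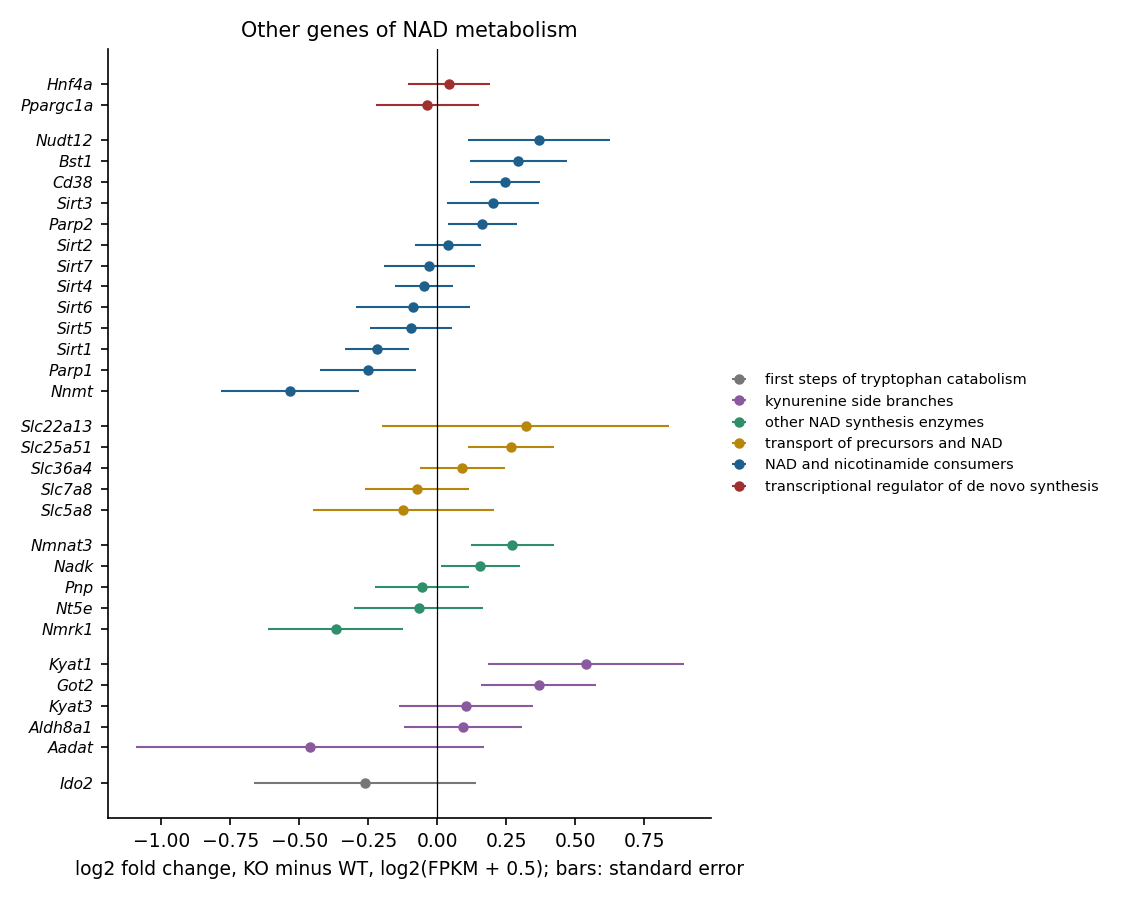
Log2 fold change, KO minus WT on the scale log2(FPKM + 0.5), of the 31 tested rows of other NAD metabolism genes, coloured by role, with standard errors as bars. The values lie between -0.53 and 0.54 and spread to both sides of 0 within most roles.

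Acmsd, Qprt and Haao are enriched in the proximal tubule, so its markers were set beside them. In bulk kidney RNA, fewer cells of a type and less RNA per cell cannot be told apart. Of 18 proximal tubule markers 0 had an adjusted p under 0.05 (limma), and both KO pools lay below both WT pools for 8, against 18.1% of all genes tested, and above them for 2, against 19.7%. At an unadjusted p under 0.05 there were 4 of the 18 (Slc5a2, Lrp2, Slc34a3 and Gatm), all lower in KO as Acmsd and Qprt were, against 3.03% of all genes tested. Their median log2 fold change was -0.26, with a range from -1.24 to 0.73, beside 0.0071 over all genes tested. Gatm, an enzyme of creatine synthesis, was at 7.30 and 6.18 FPKM in WT and 2.33 and 3.16 FPKM in KO, while Slc22a6, the organic anion transporter OAT1, was at 233 and 141 FPKM in WT and 236 and 383 FPKM in KO. The summed FPKM of the list was 13166 and 7457 in WT and 8667 and 12953 in KO, and no marker of the list was at 0. Most of that sum was 1 gene, Kap, at 8976 and 4387 FPKM in WT and 6038 and 9316 FPKM in KO. The geometric mean of the list, which weighs each marker alike, was 160.4 and 118 in WT and 94.6 and 134 in KO, so the pools overlapped. As a percentage of that geometric mean, Acmsd was at 15.0% and 20.5% in WT and 13.7% and 10.04% in KO, and Qprt at 18.3% and 29.9% in WT and 16.4% and 16.5% in KO. Both genes were thus lower in both KO pools on this scale too, with log2 differences of -0.58 and -0.51. In limma fits relative to the marker mean their log2 fold changes were -0.57 and -0.51, and their unadjusted p-values rose to 0.186 and 0.230. That fit took the spread as common to all genes, and it includes the variation of the marker mean between pools of a group. As a percentage of the geometric mean Haao, at 54.9% and 51.5% in WT and 68.9% and 61.3% in KO, was higher in both KO pools.

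**Figure D5:**
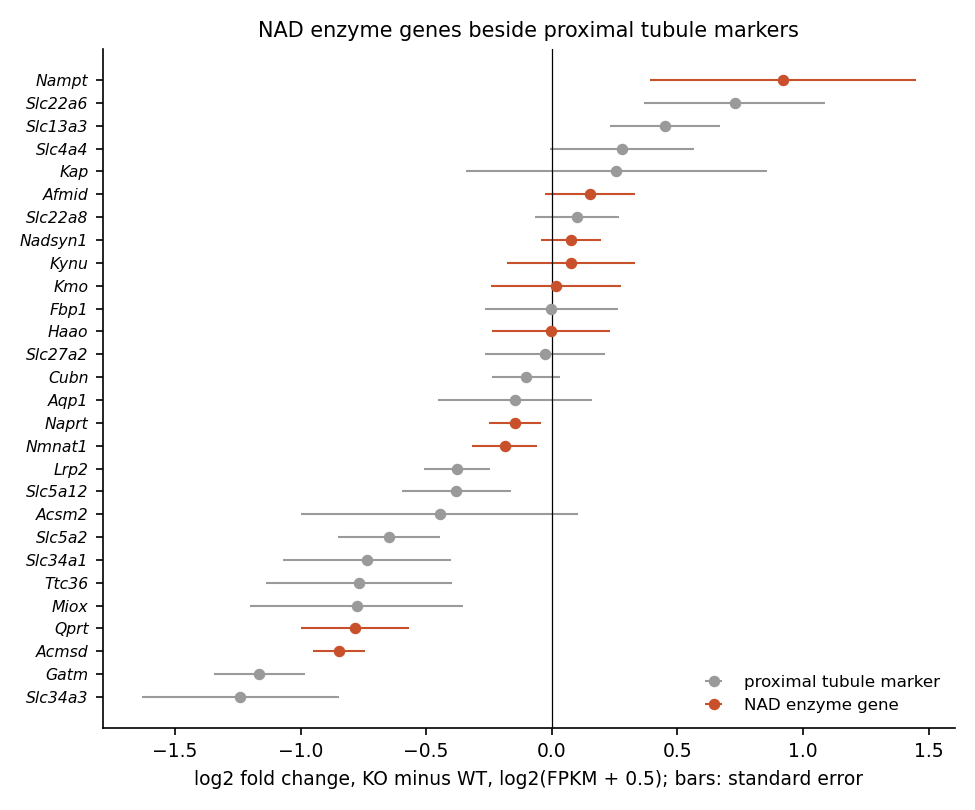
Log2 fold change, KO minus WT on the scale log2(FPKM + 0.5), of the 10 NAD enzyme genes (red) and 18 proximal tubule markers (grey), sorted by value, with standard errors as bars. Acmsd and Qprt lie near the lower end, above the markers Gatm and Slc34a3, and Nampt at the upper end.

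Reads on genes ranged from 16045724 to 16927742 per pool. Apela, the targeted gene, was at 5.27 and 4.57 FPKM in WT and 0.536 and 0.245 FPKM in KO. The injury marker Lcn2 was at 132.6 and 95.2 FPKM in WT and 249 and 273 FPKM in KO, while Havcr1 was at 210.4 and 393 FPKM in WT and 249 and 105.4 FPKM in KO. Of 8 tubular injury markers, both KO pools lay above both WT pools for 4 (Lcn2, Krt20, Krt8 and Krt18) and below them for 1 (Vcam1), beside 19.7% and 18.1% of all genes tested, and the pools of 3, Havcr1 among them, overlapped. The summed FPKM of 9 macrophage markers was 207.5 and 488 in WT and 263 and 233 in KO, with the highest value in the pool where Nnmt was highest. Of these markers 8 had a log2 fold change below 0, beside 7497 of the 15414 genes tested, with a median of -0.62. Both KO pools lay below both WT pools for 2 of them, against 18.1%. The summed FPKM of 7 fibroblast markers was 183 and 375 in WT and 229 and 312 in KO, also highest in the pool where Nnmt was highest. The part of both lists in the Nnmt difference was not tested. The summed FPKM of 7 endothelial markers was 156 and 179.7 in WT and 225 and 230.4 in KO. Most of that sum was Plvap, at 103 and 110 FPKM in WT and 161 and 152 FPKM in KO. In this list 7 of 7 log2 fold changes were above 0, beside 7917 of the 15414 genes tested, with a median of 0.24. The KO pools were the higher without overlap for 3, against 19.7%. For 5 podocyte markers the sum was 55.1 and 51.5 in WT and 60.7 and 67.2 in KO. Podxl made up most of it, at 34.8 and 30.7 FPKM in WT and 38.7 and 42.5 FPKM in KO. Here 5 of 5 log2 fold changes were above 0, with a median of 0.095. The KO pools were the higher without overlap for 2, on the same background. The part of the macrophage, endothelial and podocyte lists in the Acmsd and Qprt differences was not tested. The series text names adipose tissue, but its title and labels name kidney. The adipocyte marker Ucp1 was at 0 in all pools and Adipoq in 3, while Cidec was at 1.37 and 0.282 FPKM in WT and 7.92 and 2.79 FPKM in KO. Summed over each list, 7 adipocyte markers came to between 0.385 and 8.32 FPKM, 6 T cell markers to between 0.687 and 2.25 and 7 neutrophil markers to between 11.1 and 29.0.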

How the data were processed

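Each library was made from poly(A) RNA of 1 pool of kidney RNA. The authors deposited FPKM per gene, computed by a sequencing company. Their processing notes name HISAT2 2.0.5 and the builds mm10 and GRCm38.p6, and the counting tool is not given in the sources used here. Of 53620 gene IDs shared with GENCODE M21, 97.1% had identical GRCm38 coordinates. FPKM times gene length gave whole reads (within 0.01) for 100% of nonzero values, which gave the depth.

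Values were compared as log2(FPKM + 0.5), which understates changes of low genes, with limma 3.58.1 in R 4.3.3 (eBayes with a mean-variance trend, two-sided, Benjamini-Hochberg adjustment) over the 15414 genes whose mean over the 4 pools reached 0.5 FPKM. The threshold was an adjusted p under 0.05. An exact permutation test of 2 against 2 pools cannot give a two-sided p below 0.333. The log2 fold changes of the fit were checked on simulated reads. Those reads were drawn with the same spread for all genes, so they do not check the p-values given here. Tables and figures used Python 3.11.15 with pandas 2.3.3 and matplotlib 3.10.9.

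The members and gene lists were chosen with earlier results of these data known. All 10 members were named. Of the other NAD genes, those with an unadjusted p under 0.05, or with pools apart and a log2 fold change of at least 0.5 in size, were to be named with values, which gave Nnmt. The other genes named from that list were chosen after their values were seen. So were the markers Gatm, Slc5a2, Lrp2, Slc34a3, Slc22a6, Kap, Plvap, Podxl, Cidec, Krt20, Krt8, Krt18 and Vcam1. Apela, Havcr1 and Lcn2 were named as checks. No genes were named by likeness of pattern, as 4 libraries are too few. Promoter regions came from RefSeq. That of Acmsd is not reported here. Replicate pools differed by more than sampling noise (chi-square per gene 31.5 in WT and 24.5 in KO). Intervals given for log2 fold changes come from the limma fit.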

Additional observations from a re-analysis of the deposited data

How the results depend on the processing

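The values were recomputed with pseudocounts of 0.1 and 1, no filter, a filter at a mean of 1 FPKM, no trend, quantile normalization, values relative to the proximal tubule markers, weights from voom, a replicate block and each pool left out in turn (limma throughout, where a lone pool is assumed to vary like the others). None of the 10 genes had an adjusted p under 0.05 in any of these. Over all genes, 0 had an adjusted p under 0.05 in each setting except relative to the proximal tubule markers, where 81 did. In that setting a shift of each pool is added to every gene and the spread was estimated as common to all genes. At an unadjusted p there were 974 genes and 2 of the 10.

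Acmsd had an adjusted p from 0.302 to 0.948 over the settings, and an unadjusted p under 0.05 in all but the fit relative to the proximal tubule markers. Qprt lost it there and without WT replicate 2 or KO replicate 1, and its adjusted p ranged from 0.406 to 0.992. Nampt gained it without KO replicate 2, under the block and relative to the markers. The median of the 10 log2 fold changes was 0.28 relative to the markers, as that of all genes was, and ranged from -0.19 to 0.11 with a pool left out. Relative to the markers Haao, Naprt and Nmnat1 turned to 0.27, 0.13 and 0.091, by the shift of 0.28 that the setting adds, and Kmo was -0.0065 with quantile normalization, where the cause was not tested. When each pool was omitted in turn, Haao ranged from -0.27 to 0.26, of Kmo from -0.34 to 0.37, of Kynu from -0.23 to 0.38, of Nadsyn1 from -0.012 to 0.17 and of Afmid from -0.063 to 0.37.

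Relative to the markers Apela, at -2.34, and Lcn2, at 1.49, passed the threshold. The pools share replicate numbers only, as the deviations of same-numbered pools had a correlation of -0.0017 across genes. With the replicate block, 0 genes had an adjusted p under 0.05 and 932 an unadjusted one, and the median of the 10 genes was 0.0062, as without it. With voom weights these counts were 0 and 970.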

Other observations

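Some genes of NAD metabolism were nearly without reads in this table. Nadk2, the mitochondrial NAD kinase, had 2 reads or fewer in every pool. Nnt, the mitochondrial transhydrogenase, had between 8 and 19 reads on its main gene model and 0 on a second model that lies within it and shares 3339 of its exonic bases. Nmrk2, the muscle form of the riboside kinase, was listed at 0, and Slc12a8, proposed as a transporter of nicotinamide mononucleotide, had 7 to 14 reads. The brain form Nmnat2 had 1 read in each WT pool and 6 and 5 reads in the KO pools, too few for a comparison.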
